A study of Mus musculus with 6 samples.

Results

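The RNAs described here are the products of 9 genes of the mouse mitochondrial genome: the mRNAs mt-Nd1, mt-Nd2, mt-Nd4, mt-Nd5, mt-Nd6, mt-Cytb and mt-Co1, and the rRNAs mt-Rnr1 and mt-Rnr2. They were taken by name from the 53379 genes of the deposited count tables and are 9 of the 37 genes that the annotation places on the mitochondrial chromosome, of which 13 encode proteins, 2 rRNAs and 22 tRNAs. The 6 libraries came from Min6, a mouse insulinoma line that releases insulin, at passage 31. All 6 shared the same exposure to 25 mM glucose with 500 µM palmitic acid, which lasted 30 h and which the labels name glucolipotoxicity. In 3 libraries the RNA had come down on beads carrying an antibody against hnRNPK, from 200 µg of protein and with washes at 350 mM KCl (the IP), and in 3 it was total RNA from a 10% input of the lysate. An IP with a control antibody and cells without the lipid exposure were not analysed here, so RNA held by beads or antibody is counted together with RNA held by hnRNPK.

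Mitochondrial DNA is transcribed inside the organelle from both strands into long precursors. The tRNAs that lie between the other genes are cut out, which frees the mRNAs and rRNAs. The rRNAs form the mitochondrial ribosome, which translates the mRNAs into core subunits of respiratory complexes I, III, IV and V. The rRNAs and all the mRNAs except mt-Nd6 are read from the same strand, while the tRNA genes lie on both strands. In beta cells, ATP from respiration closes potassium channels and so couples glucose to insulin release. hnRNPK is an RNA-binding protein encoded in the nucleus, whose KH domains prefer C-rich single-stranded RNA.

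Because C-rich stretches are what hnRNPK is known to prefer, the 30-base window with the most C is shown for the RNAs on which the results turn. Each is written 5′ to 3′ as DNA letters of the transcript sequences of GENCODE M21 (build GRCm38), with runs of 3 or more C in capitals.
mt-Rnr1, chrM:894-923, plus strand: agtacgcacacaccgCCCgtcaCCCtcctc
mt-Rnr2, chrM:1924-1953, plus strand: aCCCCgcctgtttaccaaaaacatcacctc
mt-Nd2, chrM:4911-4940, plus strand: gcacaataaCCCtaCCCCtagCCCCCCaac
mt-Co1, chrM:5635-5664, plus strand: gactcctaccaccatcatttctccttctcc
mt-Nd5, chrM:12515-12544, plus strand: cctactggtccgattccaCCCCCtcacgac
mt-Nd6, chrM:13997-14026, minus strand: ttgtcttgggttagcattaaagccttcacc
opposite strand of mt-Nd6, chrM:13640-13669, plus strand: attgccgctaCCCCaatCCCtccttccaac
mt-Cytb, chrM:14716-14745, plus strand: CCCtagcaatcgttcacctcctcttcctcc
The windows of mt-Rnr1 and mt-Nd2 held 16 C, those of mt-Nd5, mt-Cytb and the strand opposite mt-Nd6 15, that of mt-Co1 14, that of mt-Rnr2 13 and that of mt-Nd6 itself 7. The same search was made in the longest transcript of each nuclear protein-coding gene. Of the 6190 such transcripts between 519 and 1824 bases, the lengths spanned by the 9 genes, 46.9% had a window with at least 16 C, 64.2% one with at least 15, 79.9% one with at least 14 and 90.9% one with at least 13. The richest windows shown were therefore not rare for transcripts of these lengths, and that of mt-Nd6 on its own strand was poor in C. These windows describe the letters only and were not tested as binding sites.

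The libraries held 38764925 to 52735957 counts, and 17471 to 21306 genes had a read in the IP against 21805 to 22625 in total RNA. Whether replicates were grown as separate cultures is not stated, and p-values therefore cover only the spread among these 6 libraries, which could be technical. Variation between libraries, estimated by edgeR within each group alone, was 27.6% in the IP and 11.7% in total RNA, while the fit pools the groups. Total RNA libraries 2 and 3 were closer to each other than either was to library 1. Beta cell markers (8 of 8 found) summed to 4566 to 5681 CPM (counts scaled to a fixed library total, here the total count) in the IP and to 24002 to 34102 in total RNA. The sum was carried by Ins2 and Iapp, which were called lower in the IP with Ins1, while Pdx1, Nkx6-1, Slc2a2, Mafa and Slc30a8 were called higher, and the median log2 fold change of the 8 was 0.32. Summed markers of exocrine and duct cells lay between 0.102 and 1.03 in all 6 libraries, with Amy2a5, Cftr, Cpa1, Prss2 and Ptf1a at 0. Summed markers of stromal, endothelial and immune cells reached 5.26 to 7.38 in the IP and 3.47 to 4.84 in total RNA, and those of other islet cells 104 to 149 and 157 to 192, with Hhex at 0. The sum of other islet cells was carried by Gcg, which was not called, at a log2 fold change of −0.05. Ppy, at a far lower level, was called lower in the IP. The part of these differences in the results was not tested.

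The 7 mitochondrial mRNAs described here were over-represented in the IP. Of the rRNAs, mt-Rnr1 was under-represented and mt-Rnr2 was not called. Of the 9 RNAs, all of which passed the filter on low counts, 7 were higher in the IP and 1 lower by edgeR's quasi-likelihood test with a Benjamini-Hochberg adjusted p under 0.05. Over the 16929 genes tested, 28.9% were called higher and 33.6% lower, 62.4% in all. The groups did not overlap for 8 of the 9, against 71.4% of all genes. The median log2 fold change (IP minus total RNA) was 2.11 over the 9 and −0.07 over all genes tested. Log2 fold changes of 2 or more with a call were seen for 6.09% of all genes, and mt-Nd1, mt-Nd2, mt-Nd4, mt-Nd5, mt-Nd6 and mt-Cytb were among them. An offset for gene length, which removes the trend of log2 fold change with length over all genes, moved the mRNAs to 1.94 (mt-Co1) to 4.00 (mt-Nd6) on the log2 scale and mt-Rnr1 to −1.91, with the same calls. Levels are relative to the other RNAs of a library, and in bulk lysates amounts of RNA per cell cannot be read from them.

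mt-Rnr1, the rRNA of the small mitochondrial ribosomal subunit (ENSMUSG00000064337.1, chrM:70-1024, plus strand), moved against the mRNAs. It had 43.0, 48.0 and 48.2 CPM in IP libraries 1, 2 and 3, and 352, 399 and 413 CPM in total RNA libraries 1, 2 and 3, where CPM here and below are scaled with TMM factors, which align the libraries on most genes. Every IP library lay far below every total RNA library, and the CV of the 3 IP values was 6.42%. It was 8.36-fold lower in the IP, with a log2 fold change of −3.06 ± 0.10 (SE; edgeR quasi-likelihood, Benjamini-Hochberg adjusted p = 1.24e-06), at percentile 5.52 of all genes tested. mt-Rnr2, the rRNA of the large subunit and its neighbour across the tRNA gene mt-Tv (ENSMUSG00000064339.1, chrM:1094-2675, plus strand), had 682, 661 and 807 CPM in the IP and 700, 598 and 654 in total RNA. These ranges overlapped. Its log2 fold change of 0.14 ± 0.10 was not called (edgeR quasi-likelihood, Benjamini-Hochberg adjusted p = 0.278), and its sign turned to −0.29 with library totals in place of TMM factors and to −0.016 without IP library 3. The offset for gene length gave −1.91 for mt-Rnr1, still called lower, and 1.07 for mt-Rnr2, with a call.

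The rRNAs differed from each other in their response within the same libraries. mt-Rnr2 had 15.9, 13.8 and 16.7 reads per read of mt-Rnr1 in IP libraries 1, 2 and 3, and 1.99, 1.50 and 1.58 in total RNA libraries 1, 2 and 3. These ratios do not depend on the scaling of libraries. Their means were 15.5 ± 1.53 and 1.69 ± 0.260 (SD, n = 3 each; exact two-sided permutation test p = 0.1, the smallest that 3 libraries against 3 allow).

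**Figure D1:**
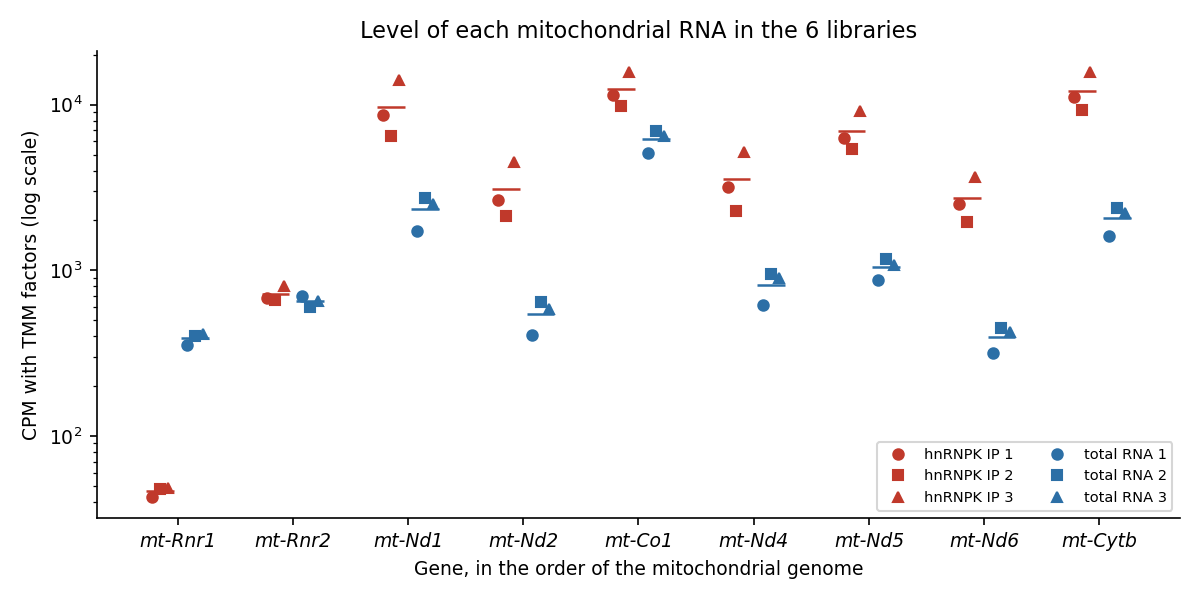
Level of each RNA in CPM with TMM factors (log axis) in the 3 IP (red) and 3 total RNA (blue) libraries, with bars at group means, in genome order. The 7 mRNAs lie higher in every IP library, mt-Rnr2 overlaps between the groups and mt-Rnr1 lies lower, at 43.0 to 48.2 against 352 to 413 CPM.

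The 5 complex I mRNAs among the 9 RNAs encode membrane subunits of NADH dehydrogenase, the entry point of electrons from NADH into the respiratory chain. All 5 were higher in the IP. The other complex I mRNAs of the mitochondrial genome, mt-Nd3 and mt-Nd4l, could hardly be measured and are given below. mt-Nd1 (ENSMUSG00000064341.1, chrM:2751-3707, plus strand) had 8646, 6481 and 14038 CPM in IP libraries 1, 2 and 3 and 1736, 2736 and 2521 in total RNA. IP library 3 stood highest, and the lowest IP library was still above all total RNA libraries. The difference was 4.17-fold (log2 fold change 2.06 ± 0.29; edgeR quasi-likelihood, Benjamini-Hochberg adjusted p = 0.000427). mt-Nd2 (ENSMUSG00000064345.1, chrM:3914-4951, plus strand) had 2674, 2126 and 4520 CPM in the IP against 404, 644 and 584. Its difference, again without overlap, was 5.71-fold (log2 fold change 2.51 ± 0.30, edgeR adjusted p = 0.000159). mt-Nd4 (ENSMUSG00000064363.1, chrM:10167-11544, plus strand) had 3198, 2277 and 5150 CPM in the IP against 620, 948 and 894. It was 4.32-fold higher (log2 fold change 2.11 ± 0.30, edgeR adjusted p = 0.000428), close to mt-Nd1 in each IP library.

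mt-Nd5 and mt-Nd6 had the highest fitted log2 fold changes, but that of mt-Nd5 lay within about 1 SE of those of mt-Cytb and mt-Nd2, and with the offset for gene length it was 3.56, below 3.61 for mt-Cytb and 3.59 for mt-Nd2. mt-Nd5 (ENSMUSG00000064367.1, chrM:11742-13565, plus strand) had 6299, 5377 and 9200 CPM in IP libraries 1, 2 and 3 and 873, 1166 and 1081 in total RNA. The lowest IP value, in library 2, lay well above the highest total RNA value. The fitted difference was 6.69-fold (log2 fold change 2.74 ± 0.21; edgeR quasi-likelihood, Benjamini-Hochberg adjusted p = 1.63e-05). mt-Nd6 (ENSMUSG00000064368.1, chrM:13552-14070), the mRNA annotated on the minus strand, had 2529, 1966 and 3650 CPM in the IP and 315, 451 and 425 in total RNA. It was 6.84-fold higher, without overlap (log2 fold change 2.77 ± 0.24, edgeR adjusted p = 3.06e-05). The annotated genes overlap by 14 bases, from 13552 to 13565, and mt-Nd6 kept a steady ratio to mt-Nd5, with 0.401, 0.366 and 0.397 reads per mt-Nd5 read in the IP and 0.360, 0.386 and 0.393 in total RNA. The sources used here do not give the strand setting of the counting, so reads of mt-Nd6 and of RNA from the opposite strand cannot be told apart.

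mt-Cytb, which encodes the cytochrome b subunit of complex III (ENSMUSG00000064370.1, chrM:14145-15288, plus strand), followed the complex I mRNAs described above. It had 11088, 9338 and 15753 CPM in IP libraries 1, 2 and 3 and 1605, 2386 and 2220 in total RNA. All IP values lay above all total RNA values, by 5.83-fold in the fit (log2 fold change 2.54 ± 0.22; edgeR quasi-likelihood, Benjamini-Hochberg adjusted p = 3.09e-05). By raw counts it was the gene with the second highest count in each IP library and ranked 15 to 27 in total RNA. mt-Co1, which encodes the catalytic subunit of cytochrome c oxidase in complex IV (ENSMUSG00000064351.1, chrM:5328-6872, plus strand), had the smallest rise of the mRNAs. It had 11458, 9861 and 15754 CPM in the IP and 5131, 6947 and 6491 in total RNA, without overlap. The fitted difference was 2.00-fold (log2 fold change 1.00 ± 0.18, edgeR adjusted p = 0.00176), at percentile 75.8 of all genes tested, and with library totals alone it was 0.57. mt-Co1 had the highest count of any gene in all 3 IP libraries and ranked 3 or 4 in total RNA.

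**Figure D2:**
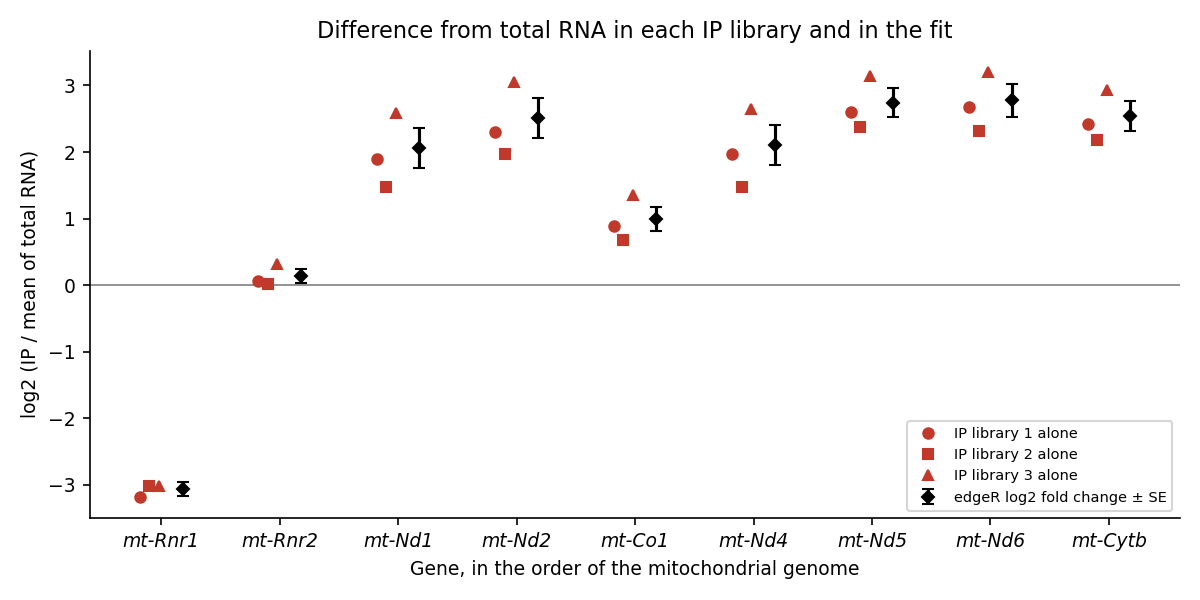
Log2 of each IP library's CPM over the mean of the 3 total RNA libraries (red symbols) beside the edgeR log2 fold change ± SE (black), in genome order. For each mRNA IP library 3 stands highest and IP library 2 lowest, from 0.67 for mt-Co1 in IP library 2 to 3.20 for mt-Nd6 in IP library 3, while mt-Rnr1 lies between −3.17 and −3.01.

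Per kb of gene length, mt-Cytb and mt-Nd1 had the highest levels in the IP and mt-Co1 in total RNA. On the scale of CPM per kb, the order in the IP was mt-Cytb (10541 ± 2898, SD, n = 3), mt-Nd1 (10159 ± 4066), mt-Co1 (7998 ± 1973), mt-Nd6 (5231 ± 1652), mt-Nd5 (3815 ± 1094), mt-Nd2 (2993 ± 1208), mt-Nd4 (2570 ± 1064), mt-Rnr2 (453 ± 49.8) and mt-Rnr1 (48.6 ± 3.12). Neighbours among the 7 mRNAs overlapped in their ranges over libraries, while mt-Nd4, mt-Rnr2 and mt-Rnr1 were separated from each other. In total RNA the order on the same scale was mt-Co1 (4006 ± 612), mt-Nd1 (2436 ± 550), mt-Cytb (1810 ± 359), mt-Nd6 (764 ± 139), mt-Nd4 (595 ± 128), mt-Nd5 (570 ± 82.8), mt-Nd2 (524 ± 120), mt-Rnr2 (411 ± 32.1) and mt-Rnr1 (406 ± 33.2). There mt-Co1 was separated from mt-Nd1 and mt-Cytb from mt-Nd6, and the other neighbours overlapped. Levels of the rRNAs thus lay close together in total RNA, at a ratio of 1.01, and 9.33-fold apart in the IP. The sources used here do not say how the libraries were made with regard to rRNA depletion or poly(A) selection, so these rRNA levels describe the libraries.

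Mitochondrially encoded genes as a whole took a larger part of the IP libraries. They held 4.02%, 3.25% and 5.99% of counts in IP libraries 1, 2 and 3, and 1.39%, 1.88% and 1.76% in total RNA libraries 1, 2 and 3. The groups did not overlap (exact two-sided permutation test p = 0.1, the smallest possible here). The 9 genes made up 99.8% to 99.9% of these counts. The rRNA genes together held 0.115% to 0.124% of all counts in total RNA and 0.0603% to 0.0742% in the IP. mt-Rnr1 alone was separated, at 0.0416% to 0.0475% against 0.00370% to 0.00418%, while the shares of mt-Rnr2 overlapped. Within the mitochondrial counts, rRNA held 8.95%, 6.12% and 6.97% in the total RNA libraries and 1.55%, 1.86% and 1.24% in the IP, a difference of −5.79 percentage points (exact two-sided permutation test p = 0.1, the smallest possible).

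The make-up of the mRNA part differed as well, and these shares do not depend on how libraries are scaled. mt-Co1 had 43.7%, 42.6% and 42.4% of mitochondrial counts in total RNA and 24.5%, 25.8% and 22.8% in the IP, although its level was higher there. The shares of mt-Cytb and mt-Nd5 were larger in every IP library. mt-Cytb held 14.3 ± 0.530% in total RNA and 23.7 ± 0.816% in the IP, and mt-Nd5 7.21 ± 0.188% and 13.6 ± 0.393% (SD, n = 3 each). mt-Nd6 held 2.74 ± 0.0549% and 5.29 ± 0.135%, and mt-Nd2 3.73 ± 0.265% and 5.95 ± 0.527%. For mt-Nd1, with 16.0 ± 1.08% and 18.6 ± 1.69%, and mt-Nd4, with 5.64 ± 0.321% and 6.76 ± 0.754%, the gap between the groups was narrow. For each of the 9 shares the groups did not overlap and the exact two-sided permutation test gave p = 0.1, the smallest possible, which is also its Benjamini-Hochberg adjusted value over the 9. Since shares sum to the whole, they are not independent of each other.

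**Figure D3:**
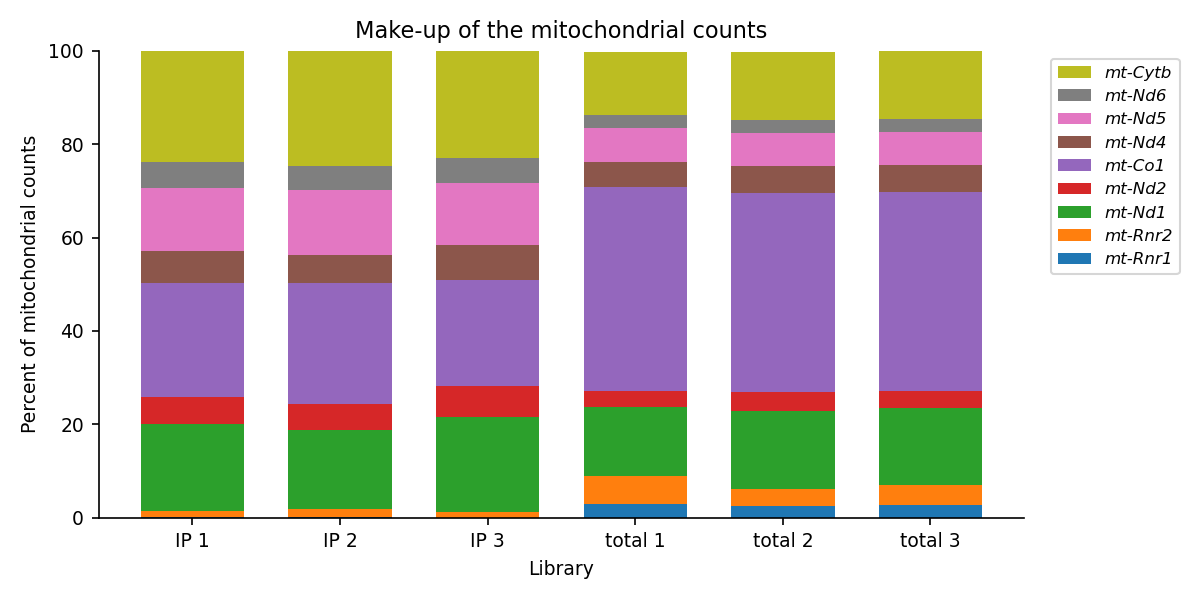
Percent of mitochondrial counts held by each of the 9 genes in each library, stacked in genome order from the bottom. Of the mitochondrial counts, the rRNAs and mt-Co1 take a smaller share in the IP libraries and mt-Cytb, mt-Nd5, mt-Nd6 and mt-Nd2 a larger one. These are shares of mitochondrial counts only: mt-Co1 itself is 2.00-fold higher in the IP.

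Ratios between mRNAs of the same strand come from the same counts as these shares, so they restate them and add no separate support. The count of mt-Nd5, which lies far from the start of the plus-strand transcripts, was 0.728, 0.830 and 0.655 of that of mt-Nd1, which lies near it, in IP libraries 1, 2 and 3 and 0.503, 0.426 and 0.429 in total RNA. On the log2 scale the mean ratio was higher in the IP by 0.70 (exact two-sided permutation test p = 0.1, the smallest possible), and by 0.52 for mt-Cytb over mt-Nd1. mt-Nd4, whose place lies between them, kept nearly the same ratio to mt-Nd1, at 0.363 ± 0.00993 (SD, n = 3) for IP libraries and 0.353 ± 0.00554 for total RNA, with overlapping ranges (exact two-sided permutation test p = 0.3). mt-Nd2, the nearest neighbour of mt-Nd1 among the mRNAs, had 0.320 ± 0.00958 against 0.233 ± 0.00190, without overlap.

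The mRNAs also varied together between libraries of a group. IP library 3 exceeded IP library 2 by 1.60-fold for mt-Co1, 1.69-fold for mt-Cytb, 1.71-fold for mt-Nd5, 1.86-fold for mt-Nd6, 2.13-fold for mt-Nd2, 2.17-fold for mt-Nd1 and 2.26-fold for mt-Nd4. mt-Rnr1 and mt-Rnr2 differed by 1.00-fold and 1.22-fold between the same libraries. In total RNA, library 1 was the lowest for all 7 mRNAs, and library 2 exceeded it by 1.34-fold to 1.59-fold. For mt-Rnr2, total RNA library 1 was instead the highest. IP library 3 was also the IP library with the most genes detected, and without it the 7 mRNAs were still called higher and mt-Rnr1 lower. Its removal took mt-Co1 to a log2 fold change of 0.73 and mt-Nd5 to 2.43.

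Read on the plus strand, C content was lower in the rRNAs and mt-Co1 than in the other mRNAs. On the plus strand, C made up 19.2% of mt-Rnr2, 19.7% of mt-Rnr1, 23.8% of mt-Co1, 25.8% of mt-Nd4, 26.0% of mt-Nd1, 26.9% of mt-Cytb, 27.1% of mt-Nd5 and 27.7% of mt-Nd2. mt-Nd6 held 5.97% C in its annotated strand, at percentile 0.00917 of the 21809 nuclear transcripts (median 24.2%), and 28.1% on the plus strand. Spearman's rho of the log2 fold change with plus-strand C was 0.917 over the 9 genes, 0.857 over the 7 mRNAs and 0.881 over the 8 genes without mt-Nd6. Start position had 0.867 over the 9 and 0.714 over the 7 mRNAs, so C content and position cannot be told apart here. With the annotated strand of each gene the rho was 0.317, and the reading on the plus strand was chosen after the values were seen. Over the 9 and the 7, rho was −0.80 and −0.61 with plus-strand G, −0.15 and −0.89 with T, 0.017 and 0.607 with A, and −0.07 and −0.21 with length. Over the mRNAs alone T thus had a rho farther from 0 than C. Over 13466 nuclear protein-coding genes the rho with C was 0.140, with G −0.23 and with length 0.506. These are descriptions across genes that share libraries and a genome of skewed composition, and genes are not independent replicates.

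**Figure D4:**
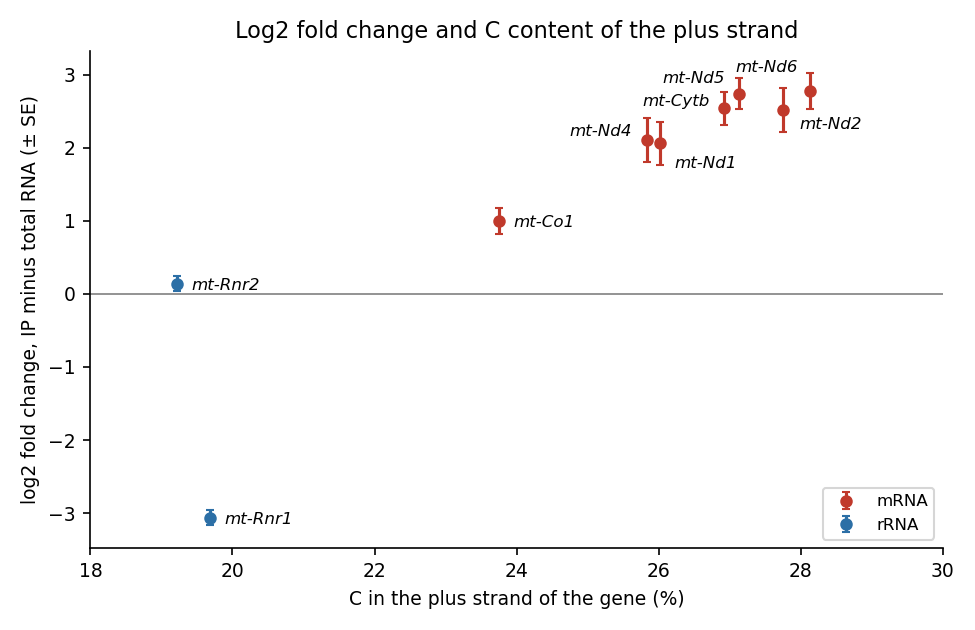
Log2 fold change ± SE of each gene against the percent of C in its plus strand, with mRNAs in red and rRNAs in blue. The rRNAs lie at 19.2% and 19.7%, mt-Co1 at 23.8%, and the other 6 mRNAs between 25.8% and 28.1% with log2 fold changes of 2.06 to 2.77. mt-Nd6, at 28.1%, is placed by the strand opposite its mRNA, and its annotated strand holds 5.97% C. The reading on the plus strand was chosen after the values were seen.

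Densities of short C motifs gave a looser picture over the 9 genes. With CCC per kb on the plus strand, Spearman's rho of the log2 fold change was 0.75 over the 9 and 0.50 over the 7 mRNAs. Over the 13466 nuclear genes it was 0.248, where that with C was 0.140. Overlapping occurrences of CCC were then counted on the annotated strand. mt-Nd2 had 25.0 per kb, mt-Nd1 21.9, mt-Cytb 20.98, mt-Nd5 17.0, mt-Co1 16.8, mt-Nd4 16.7, mt-Rnr1 14.7 and mt-Rnr2 10.1. The median of the nuclear transcripts was 16.6, so mt-Nd5, mt-Co1 and mt-Nd4 lay near it, and mt-Rnr2 at percentile 19.8. mt-Nd6 had none on its own strand and 36.6 per kb on the opposite strand, at percentile 95.4. CCCC, which CCC counts include, had a nuclear median of 3.95 per kb. It reached 13.5 on the strand opposite mt-Nd6, 7.71 in mt-Nd2 and 6.27 in mt-Nd1. It was 4.39 in mt-Nd5, 4.37 in mt-Cytb, 4.19 in mt-Rnr1, 3.63 in mt-Nd4, 1.94 in mt-Co1, 1.26 in mt-Rnr2 and 0 in mt-Nd6 itself. mt-Rnr1 thus had more CCCC per kb than mt-Nd4 and mt-Co1. For TCCC the nuclear median was 4.39. mt-Co1 had 5.18 per kb, mt-Nd2 4.82, mt-Nd5 3.84, mt-Cytb 3.50, mt-Nd4 2.90, mt-Nd1 2.09, mt-Rnr2 1.26, mt-Rnr1 1.05 and mt-Nd6 0. The strand opposite mt-Nd6 had 7.71.

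The other 6 protein genes of the mitochondrial genome, mt-Co2, mt-Atp8, mt-Atp6, mt-Co3, mt-Nd3 and mt-Nd4l, could hardly be measured. mt-Co2, a further catalytic subunit of complex IV, had 18, 2 and 36 reads in IP libraries 1, 2 and 3 and 12, 37 and 12 in total RNA. mt-Atp6, a membrane subunit of ATP synthase, had 32, 0 and 240 against 33, 125 and 61, and mt-Nd3, a complex I subunit, 155, 151 and 66 against 258, 167 and 178. mt-Co3 and mt-Nd4l had at most 104 and 65 reads in any library, and mt-Atp8 had none, which allows up to 3 counts per library or 0.0482 to 0.0910 CPM, for counting error only. That bound takes counts as independent and single. Among counts of 1 to 20, 58.6% to 68.7% were even, so it may be too low. The 5 with reads were not called (with the offset for gene length, mt-Nd3 was, at 1.33), with log2 fold changes of 0.44 ± 1.01 for mt-Co2, 0.80 ± 1.32 for mt-Atp6, −0.47 ± 0.62 for mt-Co3, 0.03 ± 0.41 for mt-Nd3 and −0.94 ± 1.08 for mt-Nd4l. The sign of each of these 5 turned under at least 1 alternative.

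These same genes have near-identical copies in the nuclear genome. Every mitochondrial gene was compared with the annotated nuclear transcripts, asking which of its 100-base stretches occur there without a mismatch. The shares were 99.5% for mt-Co2 and mt-Atp6, 99.9% for mt-Co3, 97.6% for mt-Nd3 and 98.5% for mt-Nd4l. The pseudogenes Gm28661, Gm10925, Gm28437, Gm28438 and Gm10222 lie side by side on chromosome 1, on the minus strand between 24612407 and 24615565, and match these genes in that order over 294 to 783 bases at 99.7% to 100% identity. Among the 9 genes the share was 60.8% for mt-Nd4, 30.8% for mt-Co1, 3.19% for mt-Nd2 and 0 for the other 6. mt-Atp8 had no such match among the annotated transcripts, and the surrounding genome sequence was not used here. The sources used here do not say how reads with several alignments were counted, and the part of shared sequence in these counts was not tested. mt-Co1 and mt-Nd4 above all are therefore counted with that uncertainty, while mt-Nd1, mt-Cytb and the rRNAs share no 100-base stretch. With 50-base stretches the share was 62.2% for mt-Nd4, 51.1% for mt-Co1, 8.19% for mt-Nd2, 7.61% for mt-Nd5 and 1.04% for mt-Rnr2. It was 0 for mt-Nd1, mt-Nd6, mt-Cytb and mt-Rnr1.

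Reads assigned to the nuclear copies were few, except for Gm28661. Of 16 annotated copies with at least 100 aligned bases and 90% identity, 6 had no read in any library and 1, Gm28661, reached 5 CPM. Gm28661, the copy of mt-Co2, had 0, 0 and 1346 reads in IP libraries 1, 2 and 3 and 783, 1101 and 2063 in total RNA. mt-Co2 itself had 2 to 37 reads per library. Gm28661 was not called (log2 fold change −1.09 ± 1.60, edgeR quasi-likelihood, Benjamini-Hochberg adjusted p = 0.584). The IP values rest on IP library 3 alone, and without it the gene was called lower, with a fitted value that is no bound because the other IP libraries are at 0. Gm13340, a copy of mt-Co1 over 1545 bases at 97.6% identity, had 4 to 13 reads per library, and Gm28439, which matches 876 bases of mt-Nd4 exactly, 0 to 19. Gm29216, a closer copy of mt-Co1 over 483 bases at 99.8% identity, had 2 to 39.

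**Figure D5:**
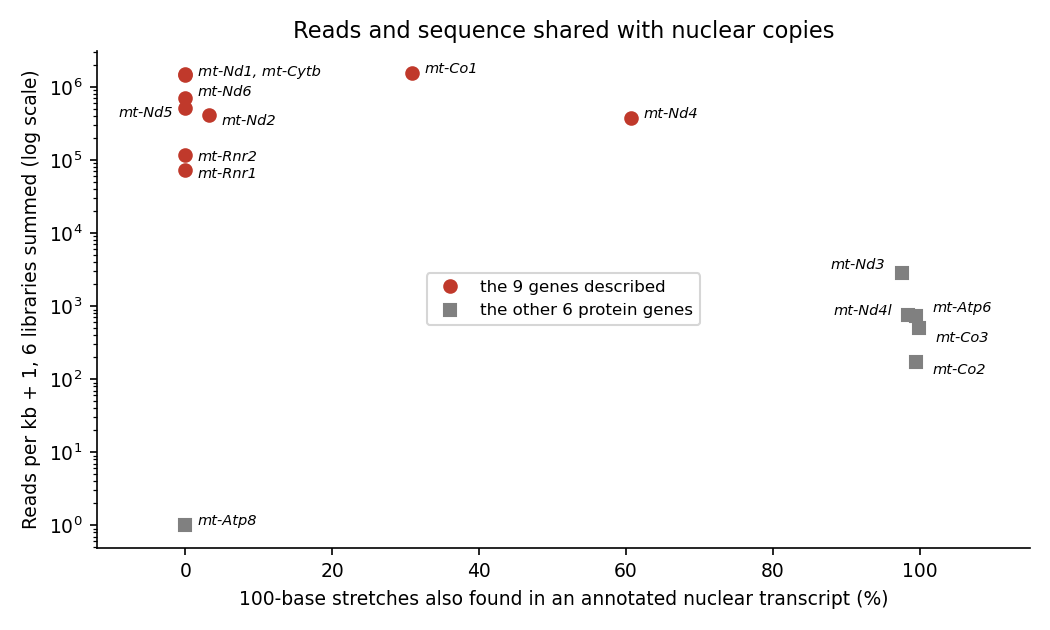
Reads per kb plus 1, summed over the 6 libraries (log axis), against the percent of 100-base stretches of each mitochondrial protein or rRNA gene that also occur in an annotated nuclear transcript. The 9 genes lie at 0% to 60.8% and the 5 other protein genes with reads at 97.6% to 99.9%, and mt-Atp8 has no read.

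Of the 22 tRNA genes, 21 had no read in any library. The exception was mt-Tp, the proline tRNA gene on the minus strand downstream of mt-Cytb (ENSMUSG00000064372.1, chrM:15356-15422), with 48.1, 50.5 and 82.4 CPM in IP libraries 1, 2 and 3 and 11.8, 19.5 and 15.7 in total RNA. All IP values were above all total RNA values, by 3.86-fold in the fit (log2 fold change 1.95 ± 0.26; edgeR quasi-likelihood, Benjamini-Hochberg adjusted p = 0.000315), and the offset for gene length gave 2.94 on the log2 scale. A gene of this length is shorter than many sequenced fragments, and with an unknown strand setting its reads cannot be told apart from those of RNA that runs across it.

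Nuclear genes for the machinery that makes, processes, modifies and translates mitochondrial RNA mostly went the other way from the mitochondrial mRNAs. Of 56 listed, 55 were found and tested, 2 were higher in the IP, 39 lower and 14 were not called, where 28.9% of all genes tested were higher and 33.6% lower. The median log2 fold change was −1.18 against −0.07 for all genes. With the offset for gene length, 4 were higher and 37 lower. The higher ones were Mrm1, an rRNA methyltransferase of the organelle, at 1.01 ± 0.14 on the log2 scale, and Mtpap, its poly(A) polymerase, at 0.87 ± 0.14 (edgeR quasi-likelihood, Benjamini-Hochberg adjusted p = 0.000348 and 0.000941). Mrm1 had 32.6, 41.7 and 38.5 CPM in IP libraries 1, 2 and 3, against 18.7 ± 1.69 in total RNA, and Mtpap 39.3, 30.8 and 42.4 against 20.5 ± 0.625 (SD, n = 3), without overlap. The lowest of those with at least 5 CPM on average were Hsd17b10, a subunit of mitochondrial RNase P, Slirp, which stabilises mitochondrial mRNAs, Rpusd4, a pseudouridine synthase, and Mrm3, an rRNA methyltransferase. Their log2 fold changes were −3.83 ± 0.52, −3.49 ± 0.40, −2.67 ± 0.50 and −2.63 ± 0.48. Without IP library 3 that of Hsd17b10 was −4.84 and that of Mrm3 −3.43, and with the offset for gene length they were −2.86 and −1.91. Without IP library 1 the log2 fold change of Rpusd4 was −2.27. Slirp had 1.60, 0.546 and 1.22 CPM in the IP and 9.51, 13.2 and 15.3 in total RNA. Few reads stood behind these IP values. In IP libraries 1, 2 and 3, Hsd17b10 had 26, 20 and 102 reads and Slirp 54, 18 and 49. Rpusd4 had 16, 73 and 85 and Mrm3 53, 26 and 142.

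Among 7344 nuclear genes with at least 20 CPM on average and an established symbol, those whose centred log2 CPM over the 6 libraries lay closest to the mean profile of the 9 RNAs were Eif5a, Ctsb, Ptms, Derl3 and Ino80e, at Euclidean distances of 0.185 to 0.245 and log2 fold changes of 1.32 to 1.47. That mean lies between the mRNAs and mt-Rnr1, and the 9 RNAs themselves were 0.514 (mt-Co1) to 5.49 (mt-Rnr1) away from it. Against the mean of the 7 mRNAs alone, a comparison added after the data were seen, the nearest were Cfl1, Gpx3, Ubald1, Arhgdia and Sncb at 0.288 to 0.393. The mRNAs lay 0.274 (mt-Nd4) to 1.52 (mt-Co1) from that mean. Cfl1 had a log2 fold change of 2.18 ± 0.21 and Sncb of 2.39 ± 0.16.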

How the data were processed

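RNA sequencing counts of 3 hnRNPK IP and 3 total RNA libraries of Min6 cells were used, with groups taken from the sample titles. The authors deposited whole-number read counts per gene without normalization, made per the submitters' processing notes with TopHat2 on mm10 and featureCounts. The sources used here do not give versions, annotation release, strand or multi-mapping settings. Of 53379 gene identifiers 53274 were found in GENCODE M21 (GRCm38, the same assembly as mm10), which gave symbols, positions and transcript sequences. Libraries held 38764925 to 52735957 counts. Among counts of 1 to 20, 58.6% to 68.7% were even, so halved counts were tried.

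The test across all genes used edgeR 4.0.16 in R 4.3.3 (TMM factors, filterByExpr with minimum count 10 and minimum total 15, glmQLFit and glmQLFTest on the group, Benjamini-Hochberg over 16929 genes). The code was first run on simulated counts with the same spread in both groups, which does not measure its error in these data. SE is the absolute log2 fold change over the square root of F. Alternatives were DESeq2 1.42.0, limma-voom (limma 3.58.1), other scalings and filters, an offset for gene length, a replicate block and leaving out each library. Log2 CPM for profiles used a prior count of 2. Shares and ratios were tested by exact permutation over libraries. Nuclear copies were matched with blastn. The genes and lists were chosen with earlier results of these data known. Named besides the 9 and the other mitochondrial genes are, of the machinery list, up to 4 called genes per direction with the largest change and 5 CPM on average, nuclear copies reaching 5 CPM, and the 5 nearest profiles. Copies below 5 CPM were named for their match after their values were seen.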

Additional observations from a re-analysis of the deposited data

How the results depend on the processing

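Over the 15 alternatives to the test across all genes, the calls of the 7 mRNAs (higher) and of mt-Rnr1 (lower) kept their direction and their side of the threshold. Log2 fold changes ranged from 0.57 to 1.94 for mt-Co1, 1.63 to 3.16 for mt-Nd1, 2.09 to 3.59 for mt-Nd2, 1.68 to 3.09 for mt-Nd4, 2.31 to 3.56 for mt-Nd5, 2.35 to 4.00 for mt-Nd6, 2.11 to 3.61 for mt-Cytb and −3.50 to −1.91 for mt-Rnr1, with the end farther from 0 given for each mRNA by the offset for gene length and the lowest by library totals alone or by leaving out IP library 3. The count of higher RNAs was 7 throughout, except 8 with the offset for gene length, which called mt-Rnr2. Library totals alone moved the median of all genes from −0.07 to −0.51.

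Results that turned sign were not called in either fit, and the cause was not tested. mt-Rnr2 was −0.29 with library totals alone and −0.016 to 0.23 without single libraries, below 0 without IP replicate 3. mt-Co2 was −0.34 to 1.28 and mt-Atp6 −1.51 to 1.50 without single libraries, both below 0 without IP replicate 3, and mt-Atp6 was −1.07 with limma-voom. mt-Co3 was 0.64 and mt-Nd4l 0.18 with the offset for gene length. mt-Nd3 was −0.41 with library totals alone, −0.0082 without the low count filter, −0.16 with limma-voom, −0.093 with the replicate block, and −0.25 to 0.31 without single libraries, below 0 without IP replicate 1, IP replicate 2 or total RNA replicate 2. Gm28661 was −13.2 and called without IP replicate 3, where the remaining IP libraries have 0 reads. mt-Nd3 was 1.33 and called with the offset for gene length.

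Same-numbered libraries were not paired by the labels, and their deviations from the group means had correlations of −0.013, −0.22 and 0.305. With the replicate block, 7 RNAs stayed higher and 1 lower, and 4384 and 5364 of all genes were called, against 4892 and 5680. The difference in mitochondrial percent was 2.74 in both, with a sign-flip p of 0.25, the smallest possible for 3 pairs. Without any 1 library it was 1.96 to 3.33 percentage points, the rRNA share −6.41 to −4.99 and the log2 ratio of mt-Nd5 to mt-Nd1 0.61 to 0.78. Counts of the 6 other protein genes were low in all 6 libraries, and the cause was not tested.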
